A study of Mus musculus with 5 samples.

Results

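The 10 genes described here belong to Wnt signalling: the ligand genes Wnt3a, Wnt4, Wnt5a, Wnt7a and Wnt7b, the receptor genes Lrp5, Lgr4 and Lgr5, and Axin2 and Lef1, which act in the response to the signal. Binding of NKX2-1, the homeodomain factor of lung epithelium, was measured by ChIP-seq in lungs of Wildtype mice at P10, postnatal day 10. Against the protein, 4 antibodies (Abcam133737, Millipore07-601, Abcam76013 and Abcam133638) gave 1 library each, of 43031331 to 46547989 filtered tags, and all 4 lists of peaks were called against the same input library. All libraries share genotype, age and tissue and hold no mutant or treated lung. Sonicated chromatin from several tubes of nuclei was pooled before the immunoprecipitations, and the number of animals is not given in the labels. The tissue is lung freed of tissue outside it, in which the cell type behind a peak cannot be told, and peak lists hold no expression values against which the tissue could be checked. Peaks were taken whose summit lay inside a gene or within 20 kb of it in the RefSeq annotation of GRCm38.p6 (mm10), and peaks that overlapped by at least 1 bp were merged into regions. This gave 159 of the 197816 peaks on chromosomes 1 to 19 and X, in 57 of 68913 regions. A region with a peak of every antibody is called a region of 4 antibodies, and 25 of the 57 were of this kind. With 1 library per antibody there is no replicate error, so no p-value is given, and the 4 libraries are set side by side.

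Wnt proteins are secreted ligands that bind Frizzled receptors together with the co-receptors LRP5 or LRP6. In the canonical branch this stops the destruction of beta-catenin, which then joins TCF and LEF factors on DNA and turns on target genes such as Axin2. R-spondins bind LGR receptors and raise the number of Frizzled receptors at the cell surface, and so strengthen the signal. In the lung, Wnt signals act in the formation of the organ and in the upkeep and repair of alveolar type 2 cells, the surfactant-making cells that also give rise to alveolar type 1 cells.

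Promoter sequences are shown for the genes whose start lay in or beside a peak, since a peak there bears on the start itself, and for Lef1, where no peak was found, as the contrast. They come from the RefSeq promoter table of GRCm38.p6, which matched 6 of the 10 genes by symbol, all but Wnt5a, Wnt7b, Lgr5 and Lrp5. Each is the 250 bases upstream of the first listed start, read 5′ to 3′ along the gene. Capitals mark CAAG, the core of the NK2 homeodomain site, on either strand, and CTTTGA, the core of the TCF and LEF site, on either strand. The Axin2 promoter (chr11:108920099-108920348, plus strand) lay under peaks of all 4 antibodies, and that of Lgr4 (chr2:109917397-109917646, plus strand) under peaks of 3. The listed start of Axin2 lies inside the annotated gene and not at its upstream end. That of Wnt7a (chr6:91411354-91411603, minus strand) had peaks of 3 antibodies further upstream, and that of Lef1 (chr3:131110047-131110296, plus strand) had none.
Axin2: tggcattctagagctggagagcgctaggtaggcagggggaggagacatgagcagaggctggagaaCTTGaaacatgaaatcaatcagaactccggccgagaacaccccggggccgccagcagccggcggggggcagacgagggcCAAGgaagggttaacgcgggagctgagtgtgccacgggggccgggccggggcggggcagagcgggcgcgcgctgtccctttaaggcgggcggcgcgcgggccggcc
Lgr4: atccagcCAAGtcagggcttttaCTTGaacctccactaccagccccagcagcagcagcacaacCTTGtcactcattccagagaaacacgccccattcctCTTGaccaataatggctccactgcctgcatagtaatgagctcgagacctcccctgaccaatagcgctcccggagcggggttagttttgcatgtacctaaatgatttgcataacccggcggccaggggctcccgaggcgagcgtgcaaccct
Wnt7a: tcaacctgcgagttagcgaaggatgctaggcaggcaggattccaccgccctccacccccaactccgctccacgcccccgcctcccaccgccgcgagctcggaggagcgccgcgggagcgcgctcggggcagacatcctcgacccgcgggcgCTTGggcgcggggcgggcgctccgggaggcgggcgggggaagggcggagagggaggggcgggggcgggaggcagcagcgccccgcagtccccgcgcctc
Lef1: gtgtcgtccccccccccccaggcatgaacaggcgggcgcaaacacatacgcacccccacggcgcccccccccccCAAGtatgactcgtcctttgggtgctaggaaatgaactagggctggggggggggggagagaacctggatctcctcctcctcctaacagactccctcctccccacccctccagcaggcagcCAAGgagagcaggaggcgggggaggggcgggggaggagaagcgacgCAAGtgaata

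In the Axin2 promoter CAAG matched 2 times and in that of Lgr4 4 times, without the longer site CAAGTG in either. The Lef1 promoter held 3 matches of CAAG, and the last of them, 10 to 7 bases upstream of the start, was part of a CAAGTG. The Wnt7a promoter held 1 match of CAAG, and none of the 4 windows shown held CTTTGA. The listed promoters of Wnt3a and Wnt4, not shown, also lay under no peak. Unlike that of Lef1, they held no match of CAAG or CAAGTG, and none of CTTTGA. Their content of G and C was 87.6% and 85.2%, against 66.4% in the Lef1 window shown. Lef1 has 4 listed starts, of which only the first is shown. The window of the last (chr3:131156044-131156293) held 2 matches of CTTTGA and 3 of CAAG, also without a peak. Over all 21044 listed starts of 17273 protein-coding genes, 85.7% of windows of this length held CAAG, 11.2% CAAGTG and 12.8% CTTTGA, counting both strands; CAAG lies within CAAGTG, so those 2 matches overlap. Windows under peaks of all 4 antibodies held CAAGTG in 9.94% of cases, against 12.7% of windows without a peak, and CTTTGA in 9.88% against 15.3%. Their mean content of G and C was 60.5% against 51.0%, and its part in these shares was not tested.

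The 5 ligand genes all had a region of 4 antibodies, Lrp5 and Axin2 had them too, and Lgr4, Lgr5 and Lef1 had none. That is 7 of the 10 genes, against 64.8% of all 21627 protein-coding genes by the same rule. The median length of the 10 with flanks was 86.9 kb, against 57.3 kb for all genes. The part of length in this and the shares below was not tested. Among genes of length within 10% of each of the 10, 18.3% to 29.4% had no such region. Lgr5 and Lef1 had no peak of any antibody, as did 23.3% of all genes. The genes differed more in how strong their best region was. Strength is given as the fold enrichment of the authors' peak caller, the pileup of tags at the summit over the local background of the scaled input, each with 1 tag added. A mean fold over the 4 antibodies of at least 20 was reached near Wnt3a and Wnt7a (2 of 10 genes, against 7.1% of all genes), and one of at least 10 also near Wnt4 and Wnt7b (4 of 10, against 30.6%). Among these 10 genes the 4 highest best regions stood at ligand genes, while Wnt5a, also a ligand gene, had the lowest best region of the 7 genes.

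**Figure D1:**
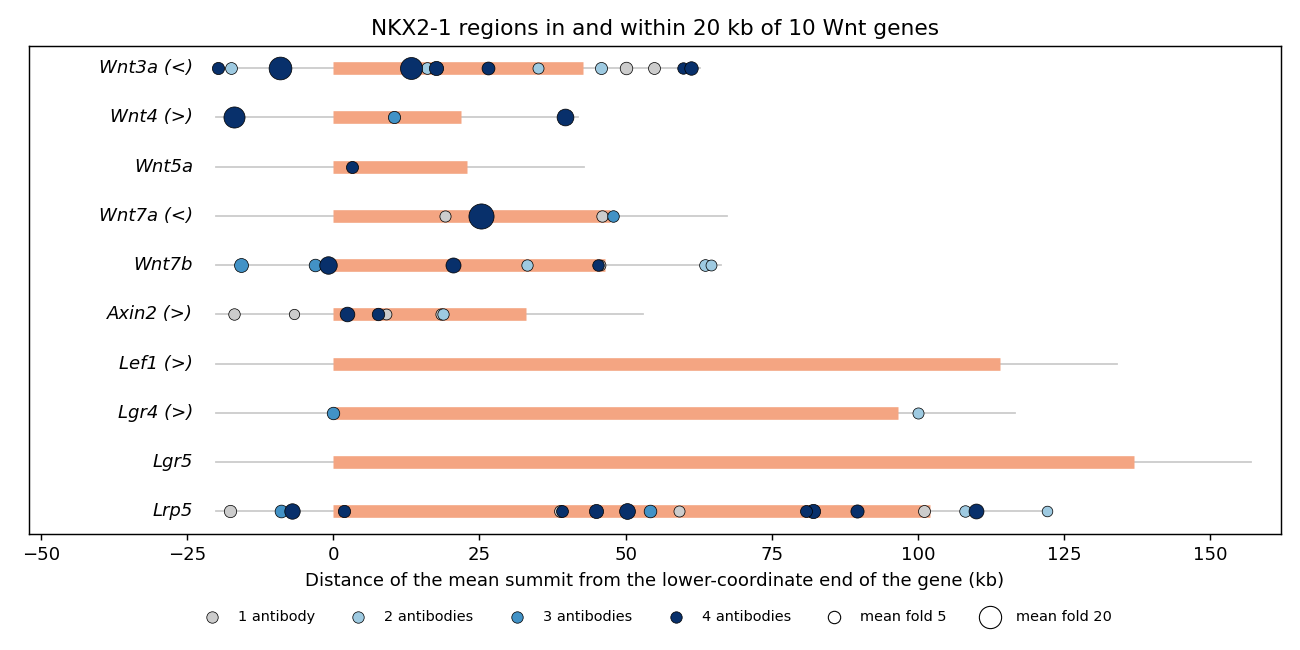
Position of the 57 regions along the 10 genes. The x axis is the distance of the mean summit from the lower-coordinate end of each gene in kb, orange bars are the genes, grey lines the 20 kb on each side, arrowheads after a name give the strand where the promoter table lists it, dot colour is the number of antibodies and dot area grows with the mean fold; the largest dots stand inside Wnt7a and Wnt3a and outside Wnt3a and Wnt4, and the rows of Lef1 and Lgr5 are empty.

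Wnt7a, which encodes a ligand known from limb, nervous system and reproductive tract development, carried the strongest region of the 10 genes. It lay inside the gene, 22.1 kb downstream of the start (chr6:91388954-91389653). The fold was 21.0 with Abcam133737, 32.8 with Millipore07-601, 20.5 with Abcam76013 and 29.5 with Abcam133638. In each list the background there was the genome-wide value. The summits of the 4 lists fell within 10 bp of each other. Pileups of 101, 154, 100 and 136 tags in the same order have exact Poisson intervals at 95% of 82.3 to 123, 131 to 180, 81.4 to 122 and 114 to 161 tags, which cover counting error only. The interval of Millipore07-601, the library with the fewest tags, thus lay above those of Abcam133737 and Abcam76013, and no replicate shows whether this would recur. This was the only region of 4 antibodies at Wnt7a. A mean fold of 26.0 was above the best region of 95.4% of the genes that had one.

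Weaker peaks stood near the start of Wnt7a. Abcam133737, Millipore07-601 and Abcam133638 had summits 516, 532 and 543 bp upstream of the start shown above, with folds of 3.91, 3.60 and 4.96, inside the long noncoding RNA gene Gm30437. Abcam76013 had no peak there. A further region of 4 antibodies lay 24.1 kb from the gene and so outside the 20 kb limit, with folds of 9.95 to 17.8, and Wnt7a was its nearest protein-coding gene.

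Wnt3a, a ligand gene of the canonical branch, had 7 regions of 4 antibodies, of which 3 lay inside it. Of the 1922 genes whose length with 20 kb on each side is within 10% of that of Wnt3a, 5.57% had as many or more. The strongest lay 9.08 kb beyond the downstream end of the gene (chr11:59238483-59239376). There the fold was 17.7 with Abcam133737, 24.4 with Millipore07-601, 18.5 with Abcam76013 and 23.4 with Abcam133638, and the summits lay within 12 bp. Another lay inside the gene 29.4 kb downstream of the start (chr11:59261041-59261560), with folds of 14.2, 23.1, 15.6 and 24.6 in the same order. Chosen by the highest fold of any antibody, this inner region would be the best one of Wnt3a.

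The other 5 regions of 4 antibodies at Wnt3a had mean folds of 4.06 to 7.17. One, 16.3 kb downstream of the start (chr11:59274206-59274540), had pileups of 63, 82, 60 and 66 tags, against 68, 108, 76 and 113 in the strong inner region, and folds of 6.57, 6.33, 4.33 and 4.92. The local background, recovered from pileup and fold, was 8.74 to 13.1 tags there, against genome-wide values of 3.64 to 3.93. The shared input held 10653749 filtered tags and was scaled up to each library. A background of this size thus rests on few input tags, and the folds there and their order by antibody depend on these. Of the 7 regions, 3 were nearer to another gene. Those 17.2 and 18.4 kb upstream of the start lay inside Wnt9a, the neighbouring ligand gene, and one 19.7 kb beyond the other end stood 0.055 kb from Arf1. No antibody had a peak over the listed promoter of Wnt3a.

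Wnt4, a ligand gene needed for kidney and female reproductive tract development, had regions of 4 antibodies on both sides and none inside. The stronger lay 16.9 kb upstream of the start (chr4:137260600-137260939). Its fold was 15.2 with Abcam133737, 22.8 with Millipore07-601, 17.1 with Abcam76013 and 16.1 with Abcam133638, so that 3 libraries were close and Millipore07-601 was highest. Beyond the downstream end, at 17.8 kb from Wnt4 but 2.43 kb from Cdc42, a second region had folds of 6.70, 13.5, 10.8 and 11.4 (chr4:137317059-137317456). Inside the gene a weaker region, 10.4 kb downstream of the start, had peaks of every antibody but Abcam76013, with folds of 4.12, 5.92 and 4.53. With a limit of 10 kb in place of 20 kb, Wnt4 had no region of 4 antibodies.

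Wnt7b encodes a ligand made by the lung epithelium that is needed for lung growth in mouse embryos. It had 3 regions of 4 antibodies, 2 of them inside the gene. The strongest lay 0.977 kb outside its lower-coordinate end (chr15:85534282-85534633), where Abcam133737 gave a fold of 10.7, Millipore07-601 one of 14.6, Abcam76013 one of 8.93 and Abcam133638 one of 12.5. A region 20.5 kb inside the gene had folds of 5.97, 9.73, 6.90 and 10.1 (chr15:85555828-85556144). A region 1.19 kb inside the upper-coordinate end was weak, with folds of 3.91, 3.57, 4.29 and 4.61 and summits within 9 bp (chr15:85580503-85580826). Millipore07-601, the highest library at the other 2 regions once pileups were scaled by filtered tags, was the lowest here, with 17 tags against 20 to 23, and the counting intervals of all 4 overlapped.

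Around Wnt7b, 2 further regions lacked only Abcam76013, at 15.7 and 3.15 kb outside the lower-coordinate end, with mean folds of 6.78 and 5.21. Just beyond the limit, 29.0 kb from the gene, a region of 4 antibodies had folds of 10.4 to 18.5, above those of every region counted for Wnt7b in mean (14.3 against 11.7). The 20 kb limit thus leaves out regions as strong as those it keeps. At the limit itself, a region of 2 antibodies 19.8 kb from Lrp5 was counted, with a mean fold of 3.21, and a region of 4 antibodies 20.3 kb from Lrp5 was not, with a mean fold of 4.92.

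Wnt5a, a ligand that mostly signals without beta-catenin and is made in lung mesenchyme, had a lone region. It lay inside the gene 3.17 kb from the lower-coordinate end (chr14:28507574-28507842). The fold was 4.94 with Abcam133737, 5.08 with Millipore07-601, 3.04 with Abcam76013 and 5.60 with Abcam133638. Pileups were 23, 23, 14 and 25 tags, and the interval of the lowest, 7.65 to 23.5, overlapped those of the other libraries. Its mean fold of 4.67 was above the best region of 3.63% of the genes that had one. It was not kept at a −log10 q of at least 5 or a fold of at least 5 in every list. The next region of 4 antibodies lay 145.0 kb away.

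**Figure D2:**
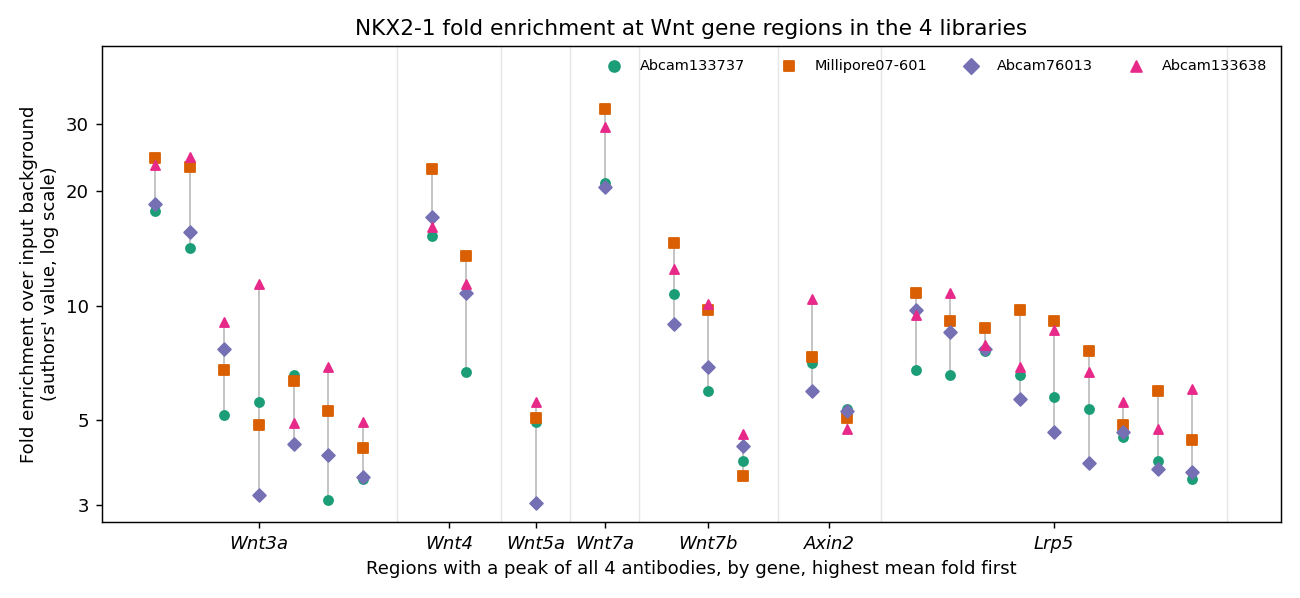
Fold enrichment in each of the 4 libraries at the 25 regions of 4 antibodies. The y axis is the authors' fold on a log scale, regions are grouped by gene and ordered by mean fold, symbols are antibodies and grey lines span their range; 4 regions at Wnt7a, Wnt3a and Wnt4 stand at mean folds of 17.8 to 26.0, and those of Lrp5 at 4.41 to 9.19.

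Lrp5 encodes a co-receptor of Frizzled, known in mouse and human for its part in bone mass and in the vessels of the eye. It had the largest number of regions of the 10 genes, 17, of which 9 were of 4 antibodies and 7 of these lay inside the gene. Of 858 genes of like length, 7.23% had as many or more, and their median was 2. The strongest lay 50.3 kb from the lower-coordinate end (chr19:3634935-3635729), where Abcam133737 gave a fold of 6.79, Millipore07-601 one of 10.8, Abcam76013 one of 9.74 and Abcam133638 one of 9.42. None of the 9 reached a mean fold of 10, and their median was 7.04. The count was thus high while each region was moderate: over all 31605 regions of 4 antibodies the median mean fold was 7.14, and 26.6% reached 10.

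The regions of Lrp5 were spread over the gene and beyond its ends. Those of 4 antibodies nearest the ends lay 1.89 kb inside the lower-coordinate end, with folds of 4.53 to 5.60, and 8.55 kb outside the upper one (chr19:3694992-3695344), inside the long noncoding RNA gene Gm36608. In the latter the libraries were close, at 7.62, 8.73, 7.71 and 7.88. Of the 9 regions of 4 antibodies counted for Lrp5, 1 was nearer Ppp6r3, at 1.78 kb (chr19:3577658-3577952, folds of 6.59, 9.10, 8.53 and 10.8). Lrp5 and Wnt3a were the 2 genes of the 10 with at least 5 regions of 4 antibodies, which 12.6% of all genes had. Per 100 kb of gene and flanks this came to 6.35 regions for Lrp5 and 8.46 for Wnt3a, against 1.14 to 3.47 for the other 5 genes with any. Among the 86 pathway genes counted below this density ran from 0.0 to 16.4, the latter at Ctnnb1. Its value over all genes is not given here. Counted by nearest gene, Wnt3a had 4 such regions and Lrp5 8. With a limit of 10 kb, Wnt3a had 4 and Lrp5 9.

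Lgr4, a receptor for R-spondins found on many epithelia, had no region of 4 antibodies in a length of 137.0 kb with its flanks, as did 21.5% of the 881 genes of like length. It had a region over its start (chr2:109917406-109917878) that covers the promoter shown above, with a fold of 4.12 for Abcam133737, 6.13 for Millipore07-601 and 5.17 for Abcam133638. Summits were 95 bp downstream, 29 bp downstream and 110 bp upstream of the start. Abcam76013 had no peak there, and without that antibody, with the other 3 required, Lgr4 counted as a gene with a region. Beyond its downstream end, at 3.65 kb and inside the neighbouring gene Ccdc34, Abcam133737 and Abcam133638 had peaks of 3.50 and 3.88 fold.

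Lgr5, a receptor for R-spondins and a marker of intestinal stem cells, had no peak of any antibody in 177.0 kb. Of 536 genes of like length, 8.21% had none. The nearest region lay 36.2 kb from the gene and was of 4 antibodies, with folds of 4.67 to 7.19 (chr10:115623867-115624243). Lef1 encodes a nuclear partner of beta-catenin and is itself often a target of the signal. It too had no peak, in 154.0 kb, as did 9.37% of 715 genes of like length. A peak of 1 antibody lay 22.1 kb away with a fold of 3.66, and the nearest region of 4 antibodies 41.4 kb away, nearer Hadh, with folds of 7.30 to 10.5. The absence of a peak is a statement at the authors' q cutoff of 0.05 and at this depth.

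Axin2, a scaffold of the beta-catenin destruction complex that the signal itself turns on and that then dampens it, was the gene with a region of 4 antibodies at a listed promoter. Of the 6 genes with a listed start it was 1 (16.7%), against 29.3% of all 17273 genes with one. The region (chr11:108920104-108921449) was 1346 bp long, the longest of the 25, and joined summits on both sides of the listed start. It lay inside the annotated gene, 2.43 kb from the lower-coordinate end, which on the plus strand is the upstream end. No peak overlapped that end. The summits of highest fold lay 56 bp upstream of the start with Abcam133737, 125 with Millipore07-601, 81 with Abcam76013 and 94 with Abcam133638, within the sequence shown. Their folds were 7.08, 7.34, 5.97 and 10.4 in that order. The pileup intervals of the lowest (21.1 to 44.0 tags) and the highest (39.7 to 69.3) overlapped. Such overlap, here as at Wnt7b and Wnt5a, does not show that the counts are equal. Abcam133737 and Abcam76013 had further summits 462 and 444 bp downstream, at folds of 4.32 and 3.65.

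A second Axin2 region of 4 antibodies lay inside the gene, 5.04 kb downstream of the listed start (chr11:108925251-108925549). Its folds of 5.35, 5.08, 5.28 and 4.74 were nearly level over the libraries. The best mean fold at Axin2, 7.69, was above that of 33.0% of the genes with a region. Both regions were kept at a −log10 q of at least 5, and none was among the 10000 strongest peaks of every list. With a fold of at least 5, and also with a reciprocal overlap of 50%, only 1 of them was left. Which one the overlap rule dropped was not recorded.

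**Figure D3:**
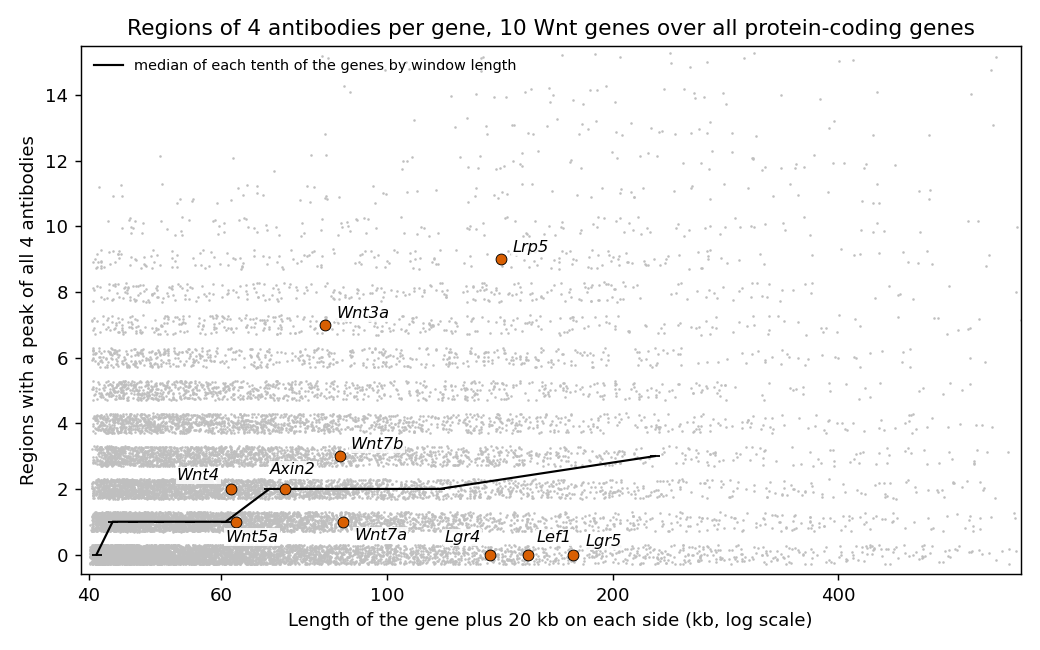
Number of regions of 4 antibodies per gene against the length of the gene with 20 kb on each side. Grey dots are all protein-coding genes, moved up or down at random by up to 0.3 for sight, the black line is the median of the genes in classes of length, and orange dots are the 10 Wnt genes; 192 of 21627 genes lie beyond the axes. Wnt3a (7) and Lrp5 (9) stand above the line, and Lgr4, Lef1 and Lgr5 at 0 below it.

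Of the 57 regions, Abcam133638 had a peak in 49 (86.0%, against 82.3% of all regions), Millipore07-601 in 46 (80.7% against 82.3%), Abcam133737 in 34 (59.6% against 57.3%) and Abcam76013 in 28 (49.1% against 58.0%). The share of regions of 4 antibodies was 43.9%, against 45.9% over all regions, and of 1 antibody 24.6% against 25.2%. Of the 7 regions of 3 antibodies, 5 lacked Abcam76013 and 2 lacked Abcam133737, while over the genome the lacking antibody was Abcam76013 in 44.0% and Abcam133737 in 46.5%. Of the 11 of 2 antibodies, 7 combined Millipore07-601 with Abcam133638, a combination that made up 63.8% of such regions over the genome. These 2 antibodies also have the longer lists, of 57761 and 57887 peaks against 40874 and 41294, and the part of list length was not tested.

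Within the 25 regions, pileup scaled by filtered tags was higher with Millipore07-601 than with Abcam133737 in all but 2, with a median log2 ratio of Abcam133737 to Millipore07-601 of -0.55, against -0.57 over all regions of 4 antibodies. Abcam133737 and Abcam76013 differed least, at -0.06 against -0.02. The highest scaled pileup belonged to Millipore07-601 in 13 of the 25, to Abcam133638 in 11 and to Abcam76013 in 1. Over the genome these shares were 65.5%, 31.6% and 1.60%. By fold, Abcam133638 was highest in 12 of the 25 and Millipore07-601 in 11, against 39.3% and 56.4% over the genome. The median fold was 8.62 with Abcam133638 and 7.61 with Millipore07-601 at these genes, and 8.26 and 8.46 over the genome. Whether these differences exceed chance was not tested. The summits of the 4 lists spread over a median of 62.0 bp at these genes, from 9 to 157 bp, against 46.0 bp over the genome, and in 22 of 25 regions (88.0%, against 85.6% over the genome) they lay within 100 bp. The widest spreads were at weak regions, 157 bp beside Arf1 and 129 and 128 bp in Lrp5.

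To place the 10 genes in their pathway, 86 Wnt pathway genes, the 10 among them, were counted by the same rule. A region of 4 antibodies was found for 67 (77.9%) and one of mean fold 10 or more for 34 (39.5%), against 64.8% and 30.6% of all genes. Their median length with flanks was 72.0 kb against 57.3 kb for all genes, and the part of length in these shares was not tested. Neighbours such as Wnt3a and Wnt9a share regions and are not independent. By role, all 10 genes of the destruction complex and beta-catenin had a region of 4 antibodies, 11 of 12 nuclear factors, 13 of 15 receptors, 14 of 19 ligands, both genes of ligand release, 5 of 6 response genes, 5 of 9 genes of the R-spondin module and 7 of 13 secreted or surface inhibitors. Of the R-spondin module, Rspo3 and Rspo4 also had none beside Lgr4 and Lgr5, and Lef1 was the nuclear factor without one. Of the 19 ligand genes 6 reached a mean fold of 10 (31.6%, near the 30.6% of all genes), and the median best fold of ligand genes was 8.31, against 9.65 over all genes with a region.

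The 5 highest best regions of the pathway all lay at genes other than the 10. The first was inside Rspo2, which encodes an R-spondin (chr15:43048211-43048919), with folds of 32.6 with Abcam133737, 49.4 with Millipore07-601, 37.7 with Abcam76013 and 38.2 with Abcam133638. Inside Tcf7l1, a TCF factor gene that mostly represses, a region had a mean fold of 29.5 (chr6:72653055-72653915), and the gene and its flanks held 19 regions of 4 antibodies. Kremen1, a receptor for the inhibitor DKK1, had one of 26.8 (chr11:5240279-5240801), Tle3, a co-repressor gene, one of 26.7 at 18.5 kb outside it (chr9:61436746-61437155), and Fzd7, a Frizzled gene, one of 26.3 at 11.2 kb outside it (chr1:59497766-59498667). Wnt7a followed at 26.0.

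No peak of any antibody was found for 9 of the 86 genes, against 23.3% of all genes: the ligand genes Wnt2, Wnt3 and Wnt16, the receptor gene Fzd10, the inhibitor genes Dkk1, Dkk3 and Frzb, and Lgr5 and Lef1. Wnt2 is a ligand of lung mesenchyme. Lrp6, the co-receptor most like Lrp5, had 6 regions of 4 antibodies and a best mean fold of 15.5, above the 9.19 of Lrp5. Among the response genes, the best mean fold was 21.4 for Nkd1, 9.09 for Sp5, 7.69 for Axin2, 6.90 for Myc and 6.03 for Ccnd1, and Nkd2 had no region of 4 antibodies.

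**Figure D4:**
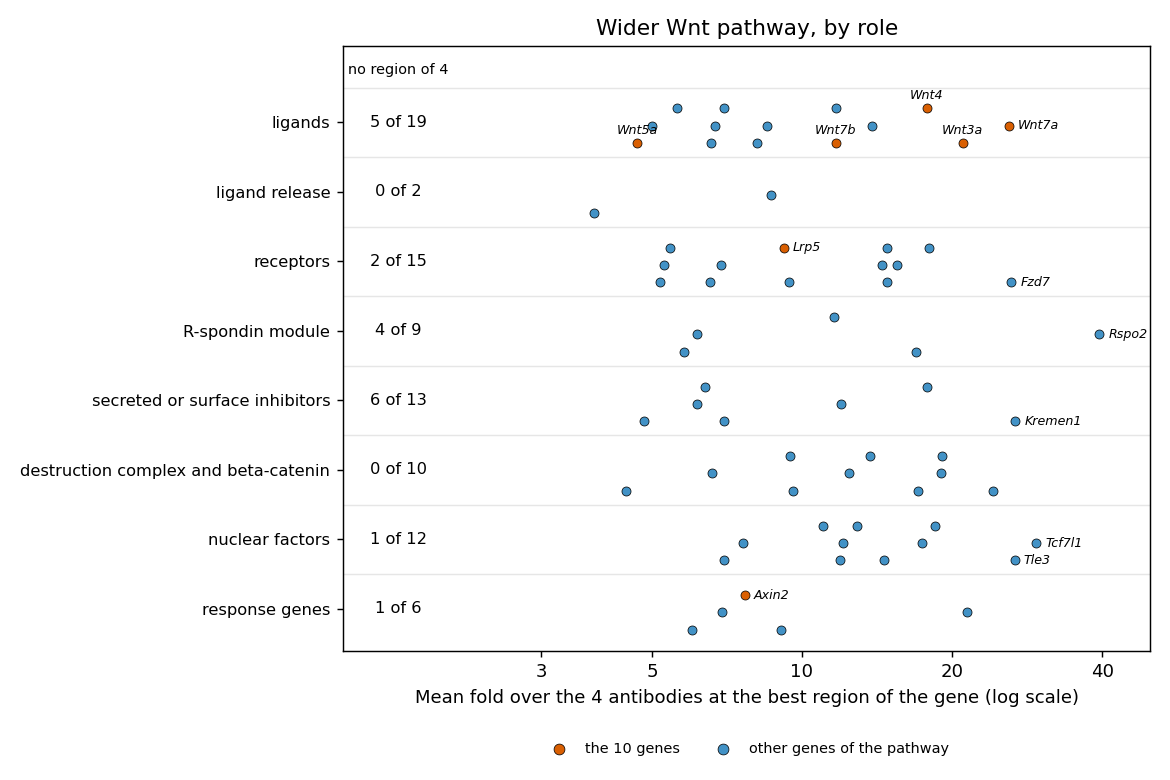
Best region of 4 antibodies of each of 86 Wnt pathway genes, by role. The x axis is the mean fold over the 4 antibodies on a log scale, each dot is a gene, orange dots are the 10 genes, vertical shifts within a row have no meaning, and the counts on the left give the genes of each role without such a region; Rspo2 stands farthest right at 39.5 and Wnt5a is the lowest ligand at 4.67.

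At listed promoters the pathway resembled all genes. A peak of all 4 antibodies covered the 250 bases upstream of a start in 17 of the 59 pathway genes with an entry (28.8%, against 29.3%). Of these 17, Sp5 was the gene whose promoter held both CAAGTG and CTTTGA. It encodes a zinc finger factor that is a direct target of the signal, and its promoter is shown for that reason, chosen after its values were seen (chr2:70474673-70474922, plus strand, capitals as above).
Sp5: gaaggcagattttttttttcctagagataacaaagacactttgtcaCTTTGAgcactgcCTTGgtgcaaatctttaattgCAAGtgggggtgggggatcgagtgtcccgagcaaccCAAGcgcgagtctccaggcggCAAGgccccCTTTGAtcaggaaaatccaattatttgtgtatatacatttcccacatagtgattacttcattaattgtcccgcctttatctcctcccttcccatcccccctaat

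The CAAGTG of Sp5 lay 170 to 165 bases upstream of the start, and CTTTGA matched at 204 to 199 and at 104 to 99 bases upstream. The stronger summits of the region fell further upstream than these, at 477 bp with Abcam133737, 412 with Millipore07-601, 480 with Abcam76013 and 456 with Abcam133638, with folds of 7.62, 10.2, 6.09 and 12.5. A second set of summits lay 102 to 208 bp downstream, with folds of 5.35 to 7.76. In Axin2 the strongest summit of each list fell within the printed bases, which hold neither CAAGTG nor CTTTGA, and 2 weaker summits fell downstream of them. A match is a description of letters and does not mark a bound site.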

How the data were processed

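The authors called peaks with MACS 2.1.2, per the file headers, for each antibody library against the input at a q cutoff of 0.05, with 1 tag kept per position and the smaller data set scaled to the larger. Each deposited list gives a pileup signal in tags at the summit, a fold (its ratio to the background described above), and the −log10 of each p-value and q-value. The submitters' processing notes name FastQC, Trimmomatic, Bowtie, SAMtools, MACS2 and deepTools and build mm10; their roles and most versions are not given in the sources used here. Coverage and peak files of the input were not used here.

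Regions were built per gene with Python 3.11.15 and pandas 2.3.3 from peaks whose summit lay inside or within 20 kb, merged at 1 bp overlap, and tested on simulated peaks. The same was done for 21627 protein-coding genes. The strongest peak of each antibody stands for it in a region. The members and lists were chosen with earlier results of these data known. All 10 genes are named, with the region of highest mean fold and the one nearest a start, and of the pathway the 5 highest genes and those without a peak; Lrp6, Wnt9a and the response genes were added after their values were seen. No test was run, since each antibody has 1 library. Alternatives were the distance, stricter peaks, stricter overlap, the nearest gene and leaving out each antibody.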

Additional observations from a re-analysis of the deposited data

How the results depend on the processing

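The 7 genes with a region of 4 antibodies numbered 6 with summits inside the gene or within 10 kb, with a −log10 q of at least 5 and with a fold of at least 5, 10 with 50 kb, and 4 with the 10000 strongest peaks of each list. The 25 regions became 16 inside the genes, 46 with 50 kb, 13 with a fold of at least 5 and 5 with the strongest peaks. The share of all genes, 64.8%, was 34.5% inside genes, 58.6% with 10 kb, 74.6% with 50 kb, 60.7% with the stricter q, 50.5% with the fold limit, 27.4% with the strongest peaks, 61.0% with summits within 100 bp, 59.6% with a reciprocal overlap of 50% and 49.4% with the nearest gene. The 67 pathway genes became 42 inside genes and 34 with the strongest peaks. Leaving out 1 antibody, with the other 3 required, gave 7 to 8 genes, 25 to 30 regions, 65.0% to 67.2% of all genes and 67 to 71 pathway genes. A region of 4 antibodies also holds any 3 of them, so these counts could hardly fall. They show only what is gained. The gene gained was Lgr4, without Abcam76013. The best region stayed in place for 5 of 7 genes when chosen by the highest fold of any antibody, not for Wnt3a and Lrp5, and for 7 by pileup scaled by filtered tags. Lef1 and Lgr5 gained a region with 50 kb and under no other alternative. Weak regions with pileups near 20 tags are limited by depth and by the cutoff. No paired analysis was possible because each antibody has 1 library. Motif searches around summits were not run, since no genome sequence was used here.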
